A study of Homo sapiens with 8 samples.

Results

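Integrins are paired alpha and beta chains in the cell membrane that bind the extracellular matrix. Laminins, each built from an alpha, a beta and a gamma chain, are the main integrin ligands of the basement membrane under an epithelium. Inside the cell, integrin tails gather talin, kindlins, kinases and adaptors into focal adhesions, which tie the matrix to the actin cytoskeleton. The genes described here are 40 named genes of this system: integrin chains, laminin and collagen chains, matrix glycoproteins, basement membrane linkers, other matrix receptors and focal adhesion proteins. They were taken by name. Of the 40, 36 were measured among 19775 genes in all, and ITGB6, LAMA3, COL17A1 and DAG1 were not analysed here.

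The samples were MDA-MB-453 cells, an established human breast cancer line in which the androgen receptor is present and the estrogen receptor is not. All 4 groups were kept for 3 days in medium without phenol red that held 5% charcoal-stripped serum, which lowers steroid hormones. The treated groups then received 10 nM DHT (5a-dihydrotestosterone, an androgen that binds the androgen receptor tightly) for 4, 16 or 48 h, and a vehicle group served as control. Each group had 2 arrays, labelled as biological replicates. How long the vehicle arrays were cultured is not labelled, so the effect of DHT and that of time in culture cannot be told apart. The series holds 1 cell line and no androgen receptor antagonist or receptor-depleted group among the samples analysed.

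The values are log2 RMA signals of Affymetrix probe sets, 1 probe set per gene, as the authors deposited them. Array medians over all probe sets ran between 7.59 and 7.63, and replicate arrays correlated at 0.995 to 0.997 across the 19775 genes. Replicate 2 of DHT 16 h stood apart on the second principal component, at -23.1 against -0.513 to 10.8 for the other 7 arrays. Its excess of 3′ over 5′ control signal was 1.52 log2 units for ACTB, against 0.203 to 0.945 on the others. All 9 measured luminal markers were above background. At 16 h 3 of these 9 were called higher and 1 lower (44.4%, adjusted p below 0.05, limma). This stood beside 6.85% of all genes and 12.1% of genes above background. At 48 h 2 were called higher and 3 lower (55.6%), beside 9.51% and 16.4%. The 48 h calls were PIP at 1.24, KRT19 at 0.68, GATA3 at -0.85, FOXA1 at -0.72 and ERBB2 at -0.65. The summed linear signal of the 9 luminal markers was 92448 to 94351 in vehicle, 81089 to 82951 at 4 h, 86312 to 92711 at 16 h and 83467 to 84070 at 48 h. None of the 5 measured basal or 3 measured immune markers was above it, nor were 6 of 7 fibroblast markers, the exception being COL1A1. The basal marker KRT5, although dim, was called higher at 48 h (0.51, adjusted p = 0.00666, limma). The summed signal of the basal markers was 1118 to 1137 at 48 h and 918 to 1015 in vehicle. Of 4 endothelial markers, PECAM1 and TEK were above background. The part of these marker changes in the adhesion results was not tested.

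A background level was set from 102 olfactory receptor genes, most of which are not expected in breast cells. Their 95th percentile was 8.82, and 8420 genes (42.6%) averaged more over the 8 arrays. Of the 36 adhesion genes, 21 lay above it. The other 15 were ITGA1, ITGA5, ITGB3, ITGB8, LAMA4, LAMB1, LAMB3, COL4A1, COL4A2, COL12A1, FN1, NID1, HSPG2, CD44 and FERMT1. BCAR1 at 8.93 and ITGA2 at 9.09 were just inside the level, and NID1 at 8.72 and ITGB3 at 8.47 just outside it. Probe sets differ in brightness, so a signal under the level does not show that a gene is silent, and levels are not ranked between genes here.

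**Figure D1:**
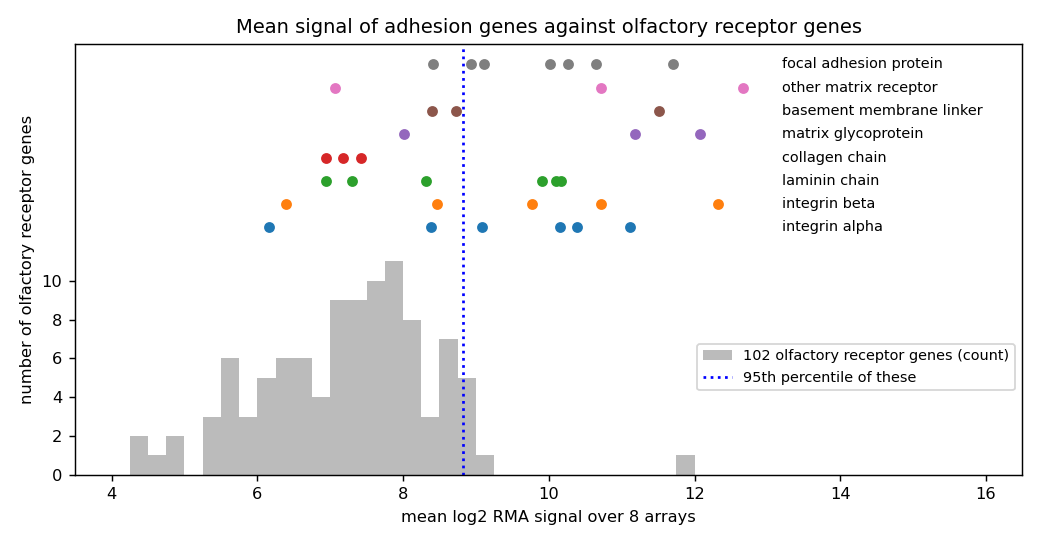
Mean log2 RMA signal over 8 arrays (x axis) of the 36 adhesion genes, drawn as points in rows by role, above a histogram of 102 olfactory receptor genes (y axis, number of genes). The dotted line is the 95th percentile of the olfactory receptor genes, 8.82, and 21 of the 36 points lie to its right, while all 3 collagen chains lie to its left.

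After DHT, a small group of adhesion genes fell and most did not pass the test. The matrix glycoproteins tenascin-C (TNC) and thrombospondin-1 (THBS1) and the integrin activator kindlin-2 (FERMT2) fell by more than 1 log2 unit at 16 and 48 h on the probe sets used. The collagen-binding chain ITGA2, its partner ITGB1 and the laminin chain LAMB1 also fell at both times, by less than 1 log2 unit on the probe sets used, and the vitronectin-binding chain ITGB5 was the only member that rose. LAMC1 passed the test at 16 h and not at 48 h, SDC1 at 48 h and not at 16 h, and neither was called between those times. No member passed at 4 h.

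A gene was called at an adjusted p below 0.05 in limma, with Benjamini-Hochberg adjustment over all genes. At 4 h, 0 of 36 members were called, with a background of 0.177% of all genes; 4 of the 36 (11.1%) had an unadjusted p below 0.05, beside 7.84% of all genes. At 16 h, 1 member rose and 7 fell (22.2% of 36), where 6.85% of all genes were called, 2.55% higher and 4.3% lower. At 48 h, again 1 rose and 7 fell, where 9.51% of all genes were called, 3.13% higher and 6.38% lower. Among genes above background the called shares were 33.3% of the 21 members and 12.1% of all such genes at 16 h, and 33.3% and 16.4% at 48 h. The median log2 change of the 36 members was -0.01 at 16 h and -0.02 at 48 h, against 0.02 and 0.01 over all genes. Over the 21 members above background the median was -0.24 at 16 h and -0.14 at 48 h. Over all genes above background it was 0.00 and -0.04. Of these 21 members, 15 were below 0 at 16 h and at 48 h, and 15 also at 4 h, when none was called. Of the 8420 genes above background, 4655 were below 0 at 4 h, 4239 at 16 h and 4762 at 48 h. The list was proposed with earlier results in view, so these shares and medians describe it and are not independent evidence. Without replicate 1 of vehicle the 16 h count was 5. In bulk RNA, fewer cells of a type and less RNA per cell cannot be told apart.

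TNC encodes a large matrix protein known for loosening cell adhesion and for its presence in tumour stroma. Its log2 signal was 12.70 and 12.73 in vehicle, 12.40 and 12.37 at 4 h, 10.59 and 10.67 at 16 h, and 8.82 and 9.26 at 48 h. The groups did not overlap at any time, and the 48 h arrays had come down to about the background level, under which a further fall could not be read. Against vehicle the log2 change was -0.33 ± 0.13 (SE) at 4 h, which did not pass (adjusted p = 0.56, limma). It was -2.08 ± 0.13 at 16 h (4.24-fold lower, adjusted p = 2.83e-06) and -3.67 ± 0.13 at 48 h (12.8-fold lower as measured, adjusted p = 1.52e-08, limma). TNC was the only member with a further call between 48 h and 16 h, at -1.59 (3.01-fold lower, adjusted p = 0.000168, limma), where 0.829% of all genes were called and 0.48% were called lower. Without replicate 1 of DHT 16 h, more members than TNC were called in that comparison. The 16 h group was then replicate 2 alone, the array that stood apart.

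THBS1 encodes a secreted glycoprotein that binds CD36, CD47 and integrins and is known as an inhibitor of blood vessel growth. Its log2 signal was 13.09 and 12.93 in vehicle, 12.83 and 12.75 at 4 h, 11.34 and 11.10 at 16 h, and 11.01 and 11.50 at 48 h. The 16 h and 48 h arrays overlapped with each other and lay well under the vehicle and 4 h arrays. THBS1 was lower by 3.45-fold at 16 h (log2 change -1.79, adjusted p = 3.2e-05, limma) and by 3.37-fold at 48 h (-1.75, adjusted p = 2.05e-05). The difference between 48 h and 16 h was 0.03 (adjusted p = 0.975).

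FERMT2 encodes kindlin-2, which binds integrin beta tails and, with talin, switches integrins to their active form. Its log2 signal was 11.02 and 11.12 in vehicle, 11.02 and 10.87 at 4 h, 9.53 and 9.82 at 16 h, and 9.29 and 9.42 at 48 h. One 4 h array equalled the lower vehicle array, and all later arrays were more than 1 unit lower than both. The log2 change was -1.40 at 16 h (2.64-fold lower, adjusted p = 3.2e-05, limma) and -1.72 at 48 h (3.29-fold lower, adjusted p = 3.21e-06). The other measured kindlin, FERMT1, was not above background, at -0.02 and -0.05 at those times. The calls of TNC, THBS1 and FERMT2 at 16 and 48 h held under every alternative setting run, but the size for TNC did not: with the mean of all its probe sets it was -1.22 at 16 h and -1.95 at 48 h.

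The 250 bases before the annotated start of these 3 genes are shown because they were the members called lower at both 16 and 48 h with a log2 change below -1 on the probe set used. The sequences are RefSeq's on GRCh38.p14, given 5′ to 3′ on the gene's strand. TNC is on the minus strand at chr9:115118158-115118407, THBS1 on the plus strand at chr15:39580829-39581078 and FERMT2 on the minus strand at chr14:52951051-52951300. Capitals mark matches to the motifs searched.
TNC: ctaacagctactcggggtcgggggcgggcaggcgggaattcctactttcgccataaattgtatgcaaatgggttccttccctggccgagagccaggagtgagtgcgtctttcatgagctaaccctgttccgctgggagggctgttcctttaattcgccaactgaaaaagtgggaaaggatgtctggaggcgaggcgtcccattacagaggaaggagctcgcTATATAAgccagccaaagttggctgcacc
THBS1: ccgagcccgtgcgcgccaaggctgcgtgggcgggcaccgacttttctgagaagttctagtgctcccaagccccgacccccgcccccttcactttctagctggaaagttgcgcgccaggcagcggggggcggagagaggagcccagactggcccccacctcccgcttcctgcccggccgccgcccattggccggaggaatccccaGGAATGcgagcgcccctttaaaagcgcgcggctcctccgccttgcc
FERMT2: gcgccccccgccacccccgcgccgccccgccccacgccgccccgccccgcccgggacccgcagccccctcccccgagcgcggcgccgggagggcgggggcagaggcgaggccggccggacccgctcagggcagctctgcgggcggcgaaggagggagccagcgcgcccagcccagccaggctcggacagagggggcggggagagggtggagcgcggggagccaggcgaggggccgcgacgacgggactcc

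The motifs, searched on both strands, were the androgen receptor half-site AGAACA, the TEAD core GGAATG, the AP-1 site TGANTCA, the TATA box TATANAA and the CArG box of serum response factor. Of 35116 promoter windows of the same length, 12.4% held the half-site, 11.9% the TEAD core, 6.57% the AP-1 site, 8.41% the TATA box and 1.16% the CArG box. The TNC window held a TATA box match 29 bases before the start, and the THBS1 window a TEAD core 46 bases before it. The FERMT2 window held none of the 5. None of the 3 windows held the half-site. A match is a run of letters and not a shown binding site, and these windows say nothing of sites elsewhere in the genes.

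Among the 6 measured integrin alpha chains, 1 fell and none rose at either late time. ITGA2, which with ITGB1 forms a collagen and laminin receptor of epithelial cells, had 9.51 and 9.48 in vehicle, 9.22 and 9.23 at 4 h, 8.74 and 8.67 at 16 h, and 8.93 and 8.97 at 48 h. The lowest arrays were those of 16 h, both under the background level, and no DHT array reached the vehicle arrays. The measured log2 change was -0.79 at 16 h (adjusted p = 0.000272, limma) and -0.55 at 48 h (adjusted p = 0.00212), and with the mean of its probe sets -0.94 and -0.83. ITGA3, a laminin-binding chain, had -0.24 and -0.32 at 16 and 48 h and did not pass (adjusted p = 0.213 and 0.0763, limma). ITGAV, which pairs with ITGB5, had -0.01 and 0.28, and neither passed. ITGA6, the laminin-binding partner of ITGB4, had -0.46 ± 0.27 at 16 h (adjusted p = 0.387), with its 2 arrays at 10.55 and 9.43. The lower of these was replicate 2, the array that stood apart, and its other probe set read 10.11 and 10.37 on the same arrays.

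Of the 5 measured beta chains, 1 rose and 1 fell at both late times. ITGB1, the common partner of most matrix-binding alpha chains, had 12.74 and 12.63 in vehicle, 12.44 and 12.50 at 4 h, 12.05 and 11.98 at 16 h, and 12.06 and 12.18 at 48 h. Every DHT array was under both vehicle arrays. The log2 change was -0.67 at 16 h (1.59-fold lower, adjusted p = 0.00137, limma) and -0.57 at 48 h (1.48-fold lower, adjusted p = 0.00258). Without _x_at and _s_at probe sets the change was -1.07 at 16 h. The probe set then read had 10.31 and 9.65 at 16 h, the lower being replicate 2, the array that stood apart. With the mean of all its probe sets, some of them under background, ITGB1 had -0.45 at 16 h and -0.30 at 48 h. The 48 h call was lost with that mean (adjusted p = 0.0962, the highest over the alternatives, the lowest being 0.00059).

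ITGB5, which pairs with ITGAV as a vitronectin receptor, had 10.18 and 10.45 in vehicle, 10.54 and 10.49 at 4 h, 10.81 and 11.08 at 16 h, and 11.08 and 11.02 at 48 h. All DHT arrays lay above both vehicle arrays. It was 1.55-fold higher at 16 h (log2 change 0.63, adjusted p = 0.00824, limma) and 1.66-fold higher at 48 h (0.73, adjusted p = 0.00233). The 16 h call was lost without replicate 1 of vehicle (adjusted p = 0.0985) or replicate 2 of DHT 16 h (0.0553), over alternatives that ran between 0.000307 and 0.0985. Both calls were lost with probe sets of the _x_at and _s_at kind left out, which gave an adjusted p of 0.0889 at 16 h and 0.74 at 48 h in limma. The probe set then read averaged 8.15, under the background level, and had 0.30 and 0.07. ITGB4, the chain of hemidesmosomes, had -0.26 at 16 h and -0.06 at 48 h and was not called.

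**Figure D2:**
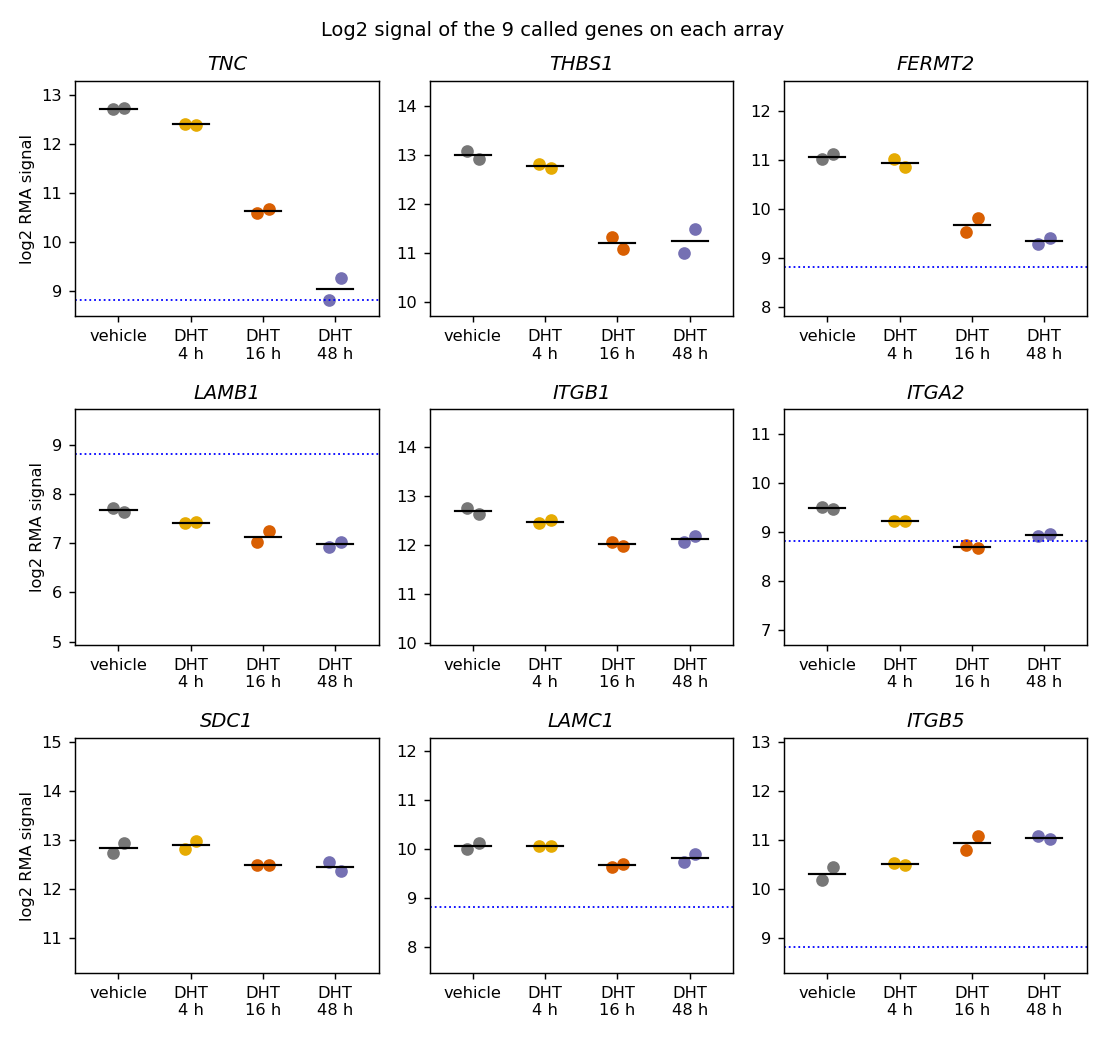
Log2 RMA signal (y axis) on each array for the 9 members called at 16 or 48 h, by group (x axis: vehicle, then DHT 4, 16 and 48 h). Points are arrays, 2 per group, bars are group means and the dotted line is the background level of 8.82; all panels span the same number of log2 units, TNC moves down the most, and LAMB1 lies under the line on all 8 arrays.

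Of the 6 measured laminin chains, 2 fell at 16 h and 1 at 48 h. LAMB1, a beta chain found in several laminins, lay under the background level on every array, at 7.72 and 7.64 in vehicle, 7.41 and 7.43 at 4 h, 7.02 and 7.25 at 16 h, and 6.93 and 7.03 at 48 h. Its DHT arrays were all under its vehicle arrays. The log2 change was -0.54 at 16 h (adjusted p = 0.00824, limma) and -0.70 at 48 h (adjusted p = 0.00116), and for so dim a probe set its size cannot be read as the size of the fall. The 16 h call was lost without replicate 1 of vehicle (0.083) and with housekeeping genes set equal (0.0923), the range over alternatives being 0.000213 to 0.0923.

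LAMC1, the gamma chain shared by most laminins, had 10.01 and 10.13 in vehicle, 10.06 and 10.07 at 4 h, 9.64 and 9.70 at 16 h, and 9.74 and 9.91 at 48 h. Its log2 change was -0.40 at 16 h (1.32-fold lower, adjusted p = 0.0294, limma) and -0.24 at 48 h (adjusted p = 0.163). The 16 h call was lost in 11 of 17 alternatives, with adjusted p between 0.0144 and 0.458; leaving out any vehicle, DHT 4 h or DHT 16 h array was enough (0.0553 to 0.138). LAMA5, the alpha chain of the main epithelial laminins, had 0.40 at 16 h (adjusted p = 0.0735, limma) and 0.10 at 48 h, and LAMB2 had 0.08 and -0.02. The 95% interval of LAMB2 at 48 h, not adjusted for the number of genes, ran between -0.28 and 0.24.

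None of the 3 measured collagen chains and none of the 3 basement membrane linkers was called at 16 or 48 h. Except AGRN, all of these were under the background level. AGRN encodes agrin, a heparan sulfate proteoglycan that binds laminin, and had -0.25 at 16 h and -0.34 at 48 h (adjusted p = 0.0849 at 48 h, limma). FN1, the fibronectin gene and the remaining matrix glycoprotein, was also under background and had 0.07 and 0.09.

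SDC1 encodes syndecan-1, the main cell surface heparan sulfate proteoglycan of epithelia. Its log2 signal was 12.73 and 12.93 in vehicle, 12.82 and 12.97 at 4 h, 12.49 and 12.49 at 16 h, and 12.54 and 12.36 at 48 h. The 16 and 48 h arrays were under both vehicle arrays, by a small margin. It passed narrowly at 48 h (log2 change -0.38, 1.30-fold lower, adjusted p = 0.0491, limma), and this call was lost in 11 of 17 alternatives, with adjusted p between 0.0119 and 0.331. Leaving out any vehicle, DHT 4 h or DHT 48 h array was enough to lose it (0.0715 to 0.24). SDC4, a syndecan of focal adhesions, had 0.00 at 16 h and -0.35 at 48 h (adjusted p = 0.102 at 48 h, limma). CD44, the hyaluronan receptor, was under background and had 0.14 and 0.12.

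Of the 7 measured focal adhesion proteins, FERMT2 alone was called. PTK2 encodes focal adhesion kinase, and its 95% intervals of the log2 change, unadjusted, ran between -0.20 and 0.22 at 16 h and between -0.13 and 0.29 at 48 h. ILK, the integrin-linked pseudokinase that binds kindlin-2, had -0.15 and -0.14, with intervals of -0.36 to 0.06 and -0.35 to 0.07. PXN (paxillin) had -0.13 at both times, BCAR1 (p130Cas) 0.16 and 0.03, and PARVA, the parvin of the ILK complex, 0.11 and -0.02. The PTK2 and ILK intervals, on the probe sets used, exclude a change as large as that of FERMT2 but not a small one. The other PXN probe set, under background, had -0.70 ± 0.43 (SE) at 16 h. Its 16 h arrays read 9.03 and 7.42, the lower being replicate 2. Over the 13 members above background that were never called, the log2 changes in the 3 comparisons with vehicle lay between -0.46 and 0.40.

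**Figure D3:**
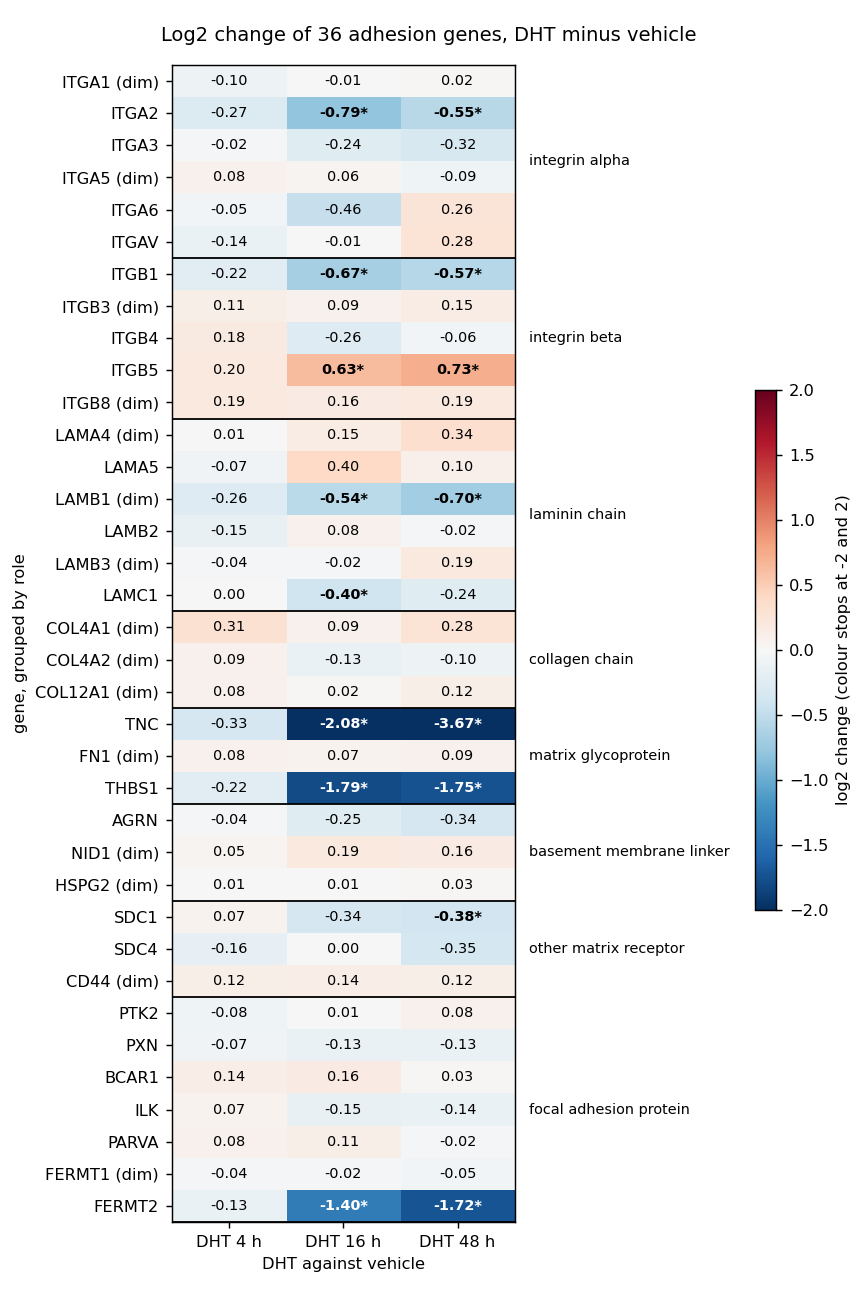
Log2 change of each of the 36 members (rows, grouped by role) at DHT 4, 16 and 48 h against vehicle (columns), printed in each cell and coloured blue for lower and red for higher. Asterisks mark calls and "dim" marks genes not above background; the blue cells with asterisks sit at 16 and 48 h, led by TNC at -3.67, and ITGB5 is the only gene with red ones.

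The times can be set against each other directly. Between 16 h and 4 h, 5 members were called, all lower, where 3.05% of all genes were called and 1.77% were called lower. They were TNC at -1.76 (3.38-fold lower), THBS1 at -1.57, FERMT2 at -1.27, ITGA2 at -0.52 and ITGB1 at -0.45. Leaving out either DHT 4 h array gave 3 members, with ITGA2 and ITGB1 lost. ITGB1 was lost in 7 of 17 alternatives in all, replicate 2 of DHT 16 h left out among them, with adjusted p between 0.00787 and 0.194. Leaving out replicate 1 of DHT 16 h gave more members. The 16 h group was then replicate 2 alone, the array that stood apart. ITGB5 had 0.43 and did not pass (adjusted p = 0.0889, limma). These comparisons share the 16 h arrays with those against vehicle and between 48 and 16 h.

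Most genes have several probe sets, which read different stretches of a transcript. A fit over all probe sets gave, besides those used above, 6 for THBS1, of which 4 were called lower at each late time and all 6 were below 0. Both other FERMT2 probe sets and the 1 other ITGA2 probe set were called lower at both times, that of ITGA2 at -1.08 and -1.11. On some of these probe sets replicate 2 of DHT 16 h, the array that stood apart, read far under replicate 1. It had 10.27 against 11.39, 10.05 against 11.55 and 7.38 against 9.59 for THBS1, and 7.72 against 8.79 for FERMT2. Replicate 1 was also under both vehicle arrays on these. The THBS1 probe set that read 7.38 was not called at 16 h (-1.88, adjusted p = 0.147, limma) or 48 h (-1.24, adjusted p = 0.325). The 1 other LAMB1 probe set was called lower too, at -1.38 and -1.44, and was dimmer still. TNC had 2 others, both dim, of which 1 was called lower, at -1.16 at 16 h and -1.76 at 48 h. That TNC probe set had -1.10 already at 4 h and -0.06 between 16 h and 4 h, neither called. At 4 h the last TNC probe set had -0.04, and the other LAMB1 and ITGA2 probe sets had -0.88 and -0.68. Those of THBS1 had -0.45 to 0.51 and those of FERMT2 -0.07 and 0.05, and none of these was called at 4 h. Between 16 h and 4 h the other ITGA2 probe set had -0.40, not called. ITGB1 had 6 others, of which 1 was called lower at 16 h and none at 48 h. Those above background had -1.07 and -1.10 at 16 h and -0.66 and -0.72 at 48 h. On these, replicate 2 of DHT 16 h was again the lower array, at 9.65 and 9.24 against 10.31 and 10.24. The rest, all under background, had -0.37 to 0.17 at 16 h and -0.20 to 0.27 at 48 h. Of 3 others for ITGB5, none was called at 16 h and 1 was called higher at 48 h, at 0.61.

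**Figure D4:**
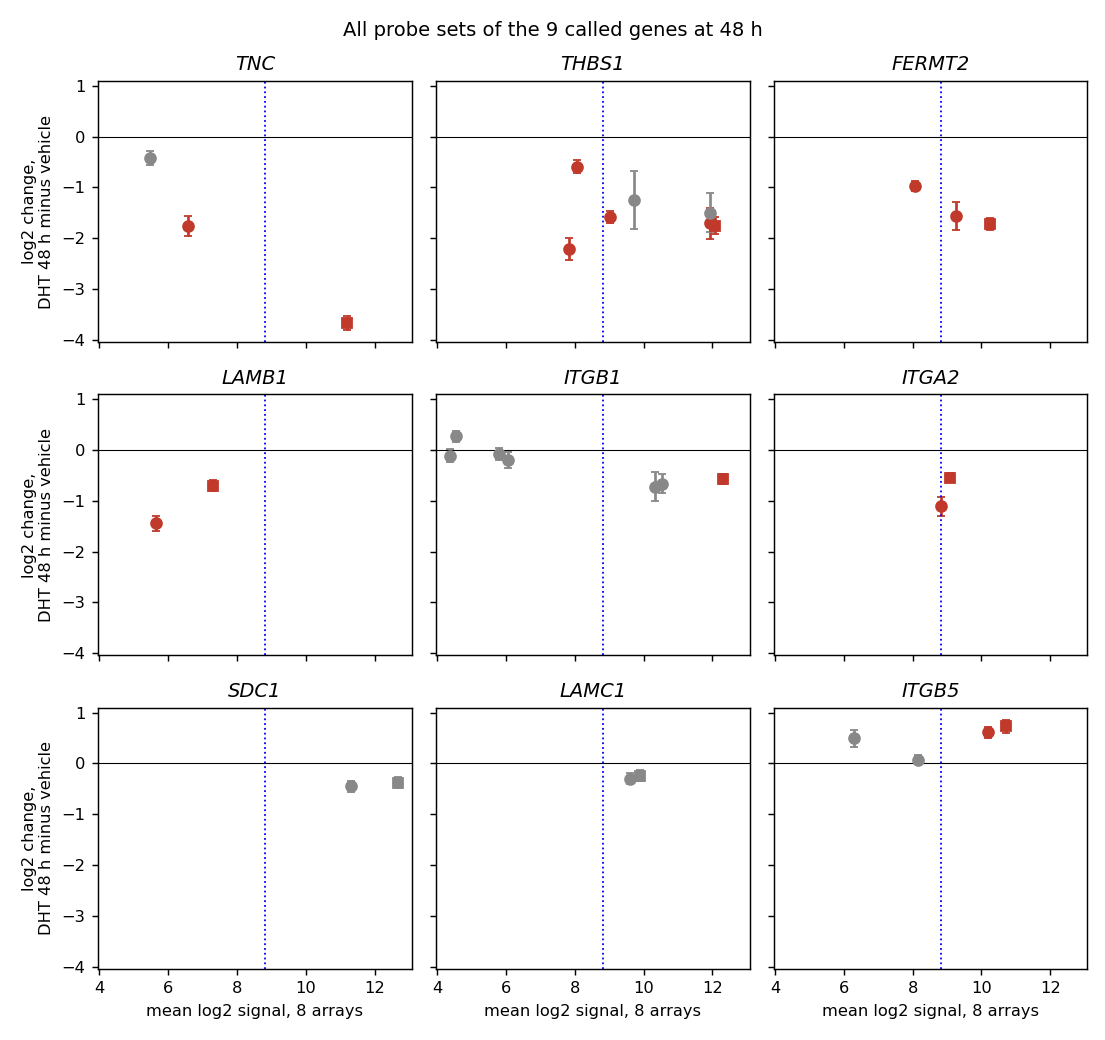
Log2 change at DHT 48 h minus vehicle (y axis, bars are SE) against mean log2 signal over 8 arrays (x axis) for every probe set of the 9 called members. Squares are the probe sets used for the gene, circles the others, and red those called in the fit over all probe sets. The dotted line is the background level. The TNC, THBS1, FERMT2, LAMB1, ITGA2, LAMC1 and SDC1 points all lie below 0.

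A list of 90 other genes of the same system, further integrin and laminin chains, matrix ligands and cytoskeletal linkers, put the members beside their neighbours. Of these 82 were measured and 31 were above background. At 4 h 0 were called and 7 (8.54%) had an unadjusted p below 0.05 (limma), beside the 7.84% of all genes. At 16 h 1 rose and 7 fell (9.76% of 82), beside the 6.85% of all genes given above. At 48 h 3 rose and 7 fell (12.2%), beside 9.51%. Of the 31 above background, 25.8% were called at 16 h and 29% at 48 h, beside 12.1% and 16.4% of all such genes. The counts were less firm than the leading genes: without replicate 1 of vehicle, 3 were called at 16 h and 4 at 48 h, without replicate 1 of DHT 48 h 4 were called at 48 h, and without replicate 2 of vehicle or either DHT 4 h array 5 were called at 16 h.

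The lowest change was that of VCL (vinculin), which links talin to actin. VCL had 12.81 and 13.07 in vehicle, 12.93 and 12.94 at 4 h, 11.04 and 11.01 at 16 h, and 10.97 and 11.08 at 48 h. The late arrays were all far under the early ones, and the log2 change was -1.91 at both times (3.77-fold lower at 16 h, adjusted p = 1.03e-06, limma). ZYX (zyxin), a LIM protein of mature focal adhesions and stress fibres, had 11.15 and 11.26 in vehicle, 11.26 and 11.24 at 4 h, 10.07 and 9.89 at 16 h, and 9.71 and 9.87 at 48 h. Its log2 change was -1.23 at 16 h (adjusted p = 3.2e-05, limma) and -1.42 at 48 h (adjusted p = 5.64e-06). VCL and ZYX were called at 16 and 48 h under every alternative run, although with the mean of all its probe sets VCL had -0.99 at 16 h and about the same at 48 h.

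Other genes of this list moved less. ACTN1, the actin cross-linker alpha-actinin-1, fell by 0.85 on the log2 scale at 48 h (adjusted p = 0.000322, limma). PAK2, a kinase acted on by Rac and Cdc42, had -0.79 at 16 h and -0.81 at 48 h, and both calls were lost without replicate 1 of vehicle (adjusted p = 0.0853 and 0.0565). Without _x_at and _s_at probe sets PAK2 had -0.30 and -0.45, and neither passed (0.266 and 0.0678). RSU1, a partner of the PINCH adaptor of the ILK complex, had -0.90 at 16 h, a call lost without _x_at and _s_at probe sets (adjusted p = 0.941). The calls in the higher direction were BCAM, a laminin receptor, at 0.58 at 16 h, and DOCK1, TES and COL4A4 at 0.38, 0.35 and 0.34 at 48 h, COL4A4 being under background. Each of these 4 was lost in 7 or more of its alternatives, among them leaving out either vehicle array, and for the 48 h calls either DHT 48 h array. BCAM was also lost without replicate 2 of DHT 16 h (adjusted p = 0.199, the highest of its alternatives, the lowest being 0.00102).

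**Figure D5:**
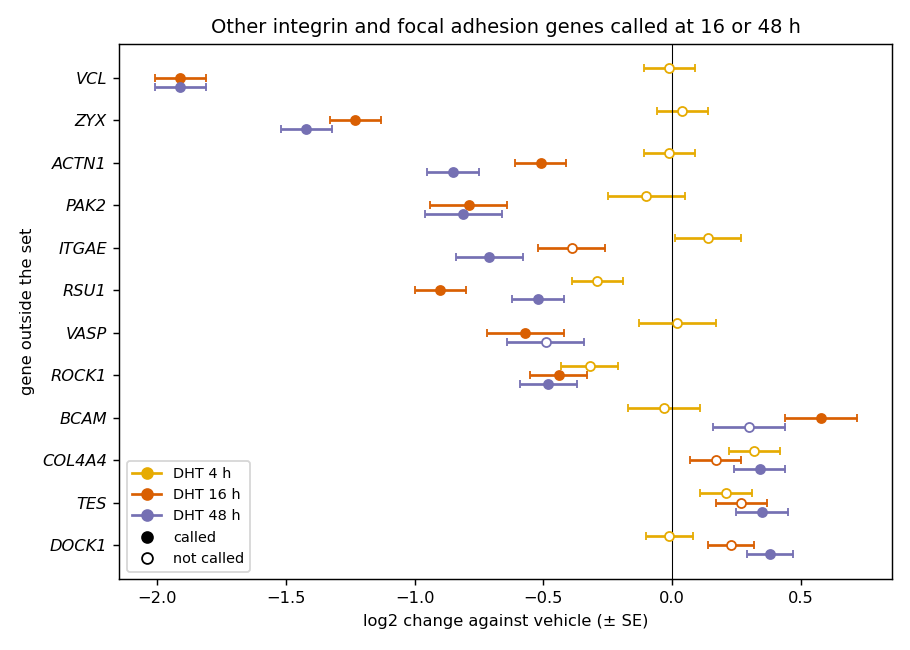
Log2 change against vehicle (x axis, bars are SE) at DHT 4, 16 and 48 h for the 12 genes outside the 40 (y axis) that were called at 16 or 48 h. Filled points are called and open points are not; VCL lies at -1.91 at both late times and ZYX at -1.23 and -1.42, while every 4 h point is open.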

How the data were processed

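Total RNA of 8 MDA-MB-453 samples was hybridised to Affymetrix HG-U133 Plus 2.0 arrays. The authors deposited log2 signals of 54675 probe sets, normalised by RMA per the submitters' processing notes; no version of RMA is stated there. No further normalisation was applied. Control probe sets (62) were left out, 41091 probe sets had 1 gene symbol, 1801 several and 11721 none. Each of 19775 genes was read by its probe set with the highest mean over the 8 arrays; 20 of the 36 members were read by an _x_at or _s_at probe set, which can match several transcripts. The number of arrays limits the precision.

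A model of 4 group means was fitted to all genes with limma 3.58.1 in R 4.3.3 (4 residual and 7.21 prior degrees of freedom), with two-sided tests and Benjamini-Hochberg adjustment over all 19775 genes per comparison. An exact permutation test of 2 arrays against 2 cannot go below 0.333 and was not run. Errors are limma's SE, and intervals are 95% and unadjusted. Scripts were tested on simulated data.

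The members and lists were chosen with earlier results of these data known. Called members were described in full, and of the list of 90 other genes the 4 highest and 4 lowest called changes per comparison with vehicle. Promoters came from RefSeq, and 29 of 36 members had a window. Alternatives were other probe set rules, quantile or housekeeping scaling, background-filtered genes, an intensity trend, 2-group fits, a replicate block and leaving out each array.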

Additional observations from a re-analysis of the deposited data

Results flagged for a closer look

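The groups of 2 arrays were too small for a test of single outlying arrays. In 6 results the effect against vehicle differed between times, by limma's test of the difference between the DHT groups. Between 16 h and 4 h the log2 difference was -1.76 for TNC, -1.57 for THBS1, -1.27 for FERMT2, -0.52 for ITGA2 and -0.45 for ITGB1, each lower at 16 h on both arrays. Between 48 h and 16 h it was -1.59 for TNC, lower at 48 h on both arrays. With the mean of all its probe sets TNC had -0.73 in each of these comparisons. The dim TNC probe set called lower at both late times had -0.06 between 16 h and 4 h. The ITGA2 and ITGB1 differences lost their call without either DHT 4 h array (adjusted p = 0.0848 and 0.0813 for ITGA2, 0.143 and 0.194 for ITGB1, limma), and that of ITGB1 was lost in 7 of 17 alternatives in all, over alternatives between 0.00359 and 0.0848 for ITGA2 and between 0.00787 and 0.194 for ITGB1.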

How the results depend on the processing

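No result changed direction under any alternative. Of the settings run for single genes, 548 kept the call and 122 lost it; of those for the counts, 118 stayed within 1.5 times and 20 moved. For members, the count between 16 h and 4 h was 10 with genes above background only and 8 with an intensity trend, against 5, and between 48 h and 16 h it was 2 with housekeeping genes set equal, against 1. For the list of 90 other genes, the 16 h count of 8 became 5 in the fit over all probe sets, 3 without _x_at and _s_at probe sets and 4 in fits of only the groups compared. The 48 h count of 10 became 6 with housekeeping genes set equal, 4 without _x_at and _s_at probe sets and 6 with the mean of all probe sets. Leaving out 1 array gave 0 to 0 members at 4 h, 5 to 9 at 16 h, 7 to 9 at 48 h, 3 to 9 between 16 h and 4 h and 1 to 4 between 48 h and 16 h, and 0 to 0, 3 to 7 and 4 to 11 genes of the list of 90 at 4, 16 and 48 h. Setting housekeeping genes equal shifted the median of all genes by 0.14, 0.12 and 0.08 at 4, 16 and 48 h. With the replicate number as a block, 0, 8 and 7 members were called at 4, 16 and 48 h; the deviations of same-numbered arrays correlated at -0.244 to 0.196, so the numbers were not taken as pairs. The causes of the moved counts were not tested, beyond the fewer arrays or genes of those settings. Signals near background limit the precision of dim genes.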

Other observations

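COL12A1, the chain of collagen XII that coats fibrils, had 0.02 and 0.12 at 16 and 48 h by the probe set used, which was not called. Of its 4 other probe sets, all under background, 1 was called lower at 16 h (-0.54) and had -0.40 at 48 h. A different 1 was called lower at 48 h (-0.66) and had -0.48 at 16 h. The rest had 0.04 and -0.07 at 16 h and 0.03 and -0.08 at 48 h. ITGAE, an integrin chain that binds E-cadherin, was called lower at 48 h (-0.71, adjusted p = 0.00478, limma), a call lost without replicate 1 of DHT 48 h (0.0549, over alternatives between 0.00106 and 0.0549).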
